A study of Homo sapiens with 16 samples.

Results

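ADGRL3, ADORA2B, SSTR1 and ASTN1 encode proteins of the cell surface and were selected on measured values of these libraries, namely RNA counts that were higher in reporter-positive than in reporter-negative cells of MDA-MB-231 as well as of MDA-MB-436 in both serum conditions. They are 4 of the 57820 genes in each deposited table, and all 4 passed the filter on low counts in both serum conditions (protein-coding genes tested: 16069 for low serum, 15414 for standard serum). Because the reporter comparison chose them, their differences between reporter-positive and reporter-negative cells are described here without a test. ADGRL3, ADORA2B and SSTR1 are G protein-coupled receptors. ASTN1 is a membrane glycoprotein of cell adhesion and is not a G protein-coupled receptor, so the word receptor covers 3 of the 4 genes.

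G protein-coupled receptors cross the membrane several times and pass the binding of a ligand outside the cell to G proteins inside it. ADGRL3 (latrophilin 3, formerly LPHN3) is an adhesion receptor that binds teneurins and FLRT proteins on neighbouring cells and is best known from synapses. ADORA2B is the low-affinity receptor for adenosine and raises cAMP through the stimulatory G protein. SSTR1 is a receptor for the peptide hormone somatostatin and lowers cAMP through inhibitory G proteins. ASTN1 (astrotactin 1) is known from young neurons, which use it to migrate along glial fibres together with N-cadherin, and ASTN2 controls how much of it reaches the surface.

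MDA-MB-231 and MDA-MB-436 are established mesenchymal lines of triple-negative breast cancer. Both carry 7TGP, a vector in which Tcf/Lef binding sites drive eGFP as a readout of canonical Wnt activity and which confers puromycin resistance, in every group including the controls. Repeated sorting of the brightest and the dimmest cells gave 1 eGFP-positive (7TGP-POS) and 1 eGFP-negative (7TGP-NEG) subline per line, so each comparison is between single sorted populations. RNA-Seq covered 8 groups with 2 biological replicates each, 16 libraries in all: both sublines of both lines after 3 days in low serum (0.5% FBS) and after 6 days in standard serum (10% FBS). The study's methods give ribosomal RNA depletion for the low serum libraries and selection of polyadenylated RNA for the standard serum libraries, on different sequencers, whereas the sample labels name 1 kit for all. Serum concentration, time in culture and library preparation changed together and cannot be told apart, so the serum conditions were never tested against each other. The methods also give a different base medium for each line, whereas the labels give the same one for both. If the methods hold, line and medium cannot be told apart.

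Gene counts per library ranged from 27918418 to 32667756 in low serum and from 31827130 to 46044073 in standard serum. Every replicate pair differed by more than sampling noise. Levels of 1 gene are given as counts and as CPM (counts divided by the library's total count and scaled to a common total), and levels of different genes are compared as deposited TPM, which is scaled to gene length. In low serum 1 small noncoding RNA held 14% to 20.6% of the TPM of each MDA-MB-231 library, and another, RN7SK, 5.77% to 11.9% in MDA-MB-436, which lowers the TPM of every other gene there by a different factor in each line. The labelled cell type was checked on breast and mesenchymal genes. VIM, the mesenchymal filament gene, led the list with a mean of 672 CPM or more in every group, and the epithelial cadherin gene CDH1 held 10 counts or fewer in every standard serum library. The epithelial keratin gene KRT8 stood close to VIM in MDA-MB-436 in low serum, at 587 and 712 CPM against 672 and 759 (7TGP-NEG first). KRT18, another keratin gene, ranged from 120 to 350 CPM. VIM was called lower in 7TGP-POS of MDA-MB-231, from 4861 to 2328 CPM in low serum and from 4905 to 2489 CPM in standard serum. The latter log2 fold change had a size down to 0.98 without 7TGP-NEG replicate 1 or 7TGP-POS replicate 2. Of the 10 breast and mesenchymal genes, 0 and 1 were called higher and 1 and 1 lower in low serum, and 1 and 0 higher and 2 and 0 lower in standard serum, MDA-MB-231 first. Over all genes tested 3.5%, 6.52%, 4.96% and 6.47% were called higher and 2.4%, 4.03%, 2.72% and 6.06% lower, in that order. The eGFP transcript of the reporter was not analysed here.

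On GRCh37, the build of the counts, ADGRL3 (ENSG00000150471) spans chr4:62066044-62944053 on the forward strand and ADORA2B (ENSG00000170425) chr17:15848444-15879060 on the forward strand. SSTR1 (ENSG00000139874) lies at chr14:38677109-38682272 on the forward strand and ASTN1 (ENSG00000152092) at chr1:176826438-177134109 on the reverse strand. The counts cover whole genes. Genes annotated inside ADGRL3 and ASTN1 held at most 9 counts in any library, and the processed pseudogene of ADORA2B on chromosome 1 held at most 5.

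The bases before each start are shown because the 4 genes rise together in cells sorted on a Tcf/Lef reporter. The sequences are the 250 bases before the RefSeq start on GRCh38.p14, a build different from that of the counts, read 5′ to 3′ on the gene's strand, with a TGACG match (either strand) in capitals.
ADGRL3 upstream (chr4:61200076-61200325): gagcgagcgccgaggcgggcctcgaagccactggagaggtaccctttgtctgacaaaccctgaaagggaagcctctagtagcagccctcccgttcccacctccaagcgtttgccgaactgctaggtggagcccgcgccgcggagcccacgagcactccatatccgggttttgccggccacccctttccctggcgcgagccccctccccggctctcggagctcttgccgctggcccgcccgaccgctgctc
ADORA2B upstream (chr17:15944880-15945129): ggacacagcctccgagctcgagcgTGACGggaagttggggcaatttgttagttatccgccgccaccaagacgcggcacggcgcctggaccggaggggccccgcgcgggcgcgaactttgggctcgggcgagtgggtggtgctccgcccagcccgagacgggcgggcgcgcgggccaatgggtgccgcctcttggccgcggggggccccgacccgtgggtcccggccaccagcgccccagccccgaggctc
SSTR1 upstream (chr14:38207654-38207903): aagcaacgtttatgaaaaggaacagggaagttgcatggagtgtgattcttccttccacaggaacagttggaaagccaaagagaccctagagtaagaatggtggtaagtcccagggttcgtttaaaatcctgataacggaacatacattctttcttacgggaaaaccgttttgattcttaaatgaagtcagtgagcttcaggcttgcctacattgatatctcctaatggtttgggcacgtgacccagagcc
ASTN1 upstream (chr1:177164713-177164962, reverse strand): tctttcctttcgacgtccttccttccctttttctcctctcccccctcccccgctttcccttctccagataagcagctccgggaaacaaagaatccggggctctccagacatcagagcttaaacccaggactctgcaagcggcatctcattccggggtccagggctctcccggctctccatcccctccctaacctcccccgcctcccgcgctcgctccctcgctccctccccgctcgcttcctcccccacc
The core of the Tcf/Lef motif, ATCAAAG, was searched on both strands in these windows and in that of a second ADGRL3 start, and none of the 5 windows held it, as against 2.26% of 35116 RefSeq promoter windows of that length. The half-site of the cAMP response element, TGACG, was found in the ADORA2B window only and in 21.2% of all windows. The windows differed in base composition. ADORA2B had 75.2% GC with 33 CpG, both ADGRL3 starts had 68.0% and 63.2% GC with 23 and 16 CpG, ASTN1 had 62.8% with 15, and SSTR1 had 43.6% with 6, beside medians of 58% and 11 over all windows.

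In each of the 4 comparisons both POS libraries lay above both NEG libraries for all 4 genes, which the choice of the genes fixes. Genes called higher in POS, by edgeR's quasi-likelihood test (adjusted p under 0.05, Benjamini-Hochberg over all genes tested, with a log2 fold change of 1 or more), made up 3.5% of tested genes for MDA-MB-231 and 6.52% for MDA-MB-436 in low serum. In standard serum they made up 4.96% and 6.47%. Of the 15286 genes tested in both serum conditions, 55 (0.36%) were called higher in all 4 comparisons and 14 (0.0916%) lower. These are bulk libraries, so more cells that express a gene and more RNA per cell cannot be told apart. The plot of CPM by library shows each value.

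**Figure D1:**
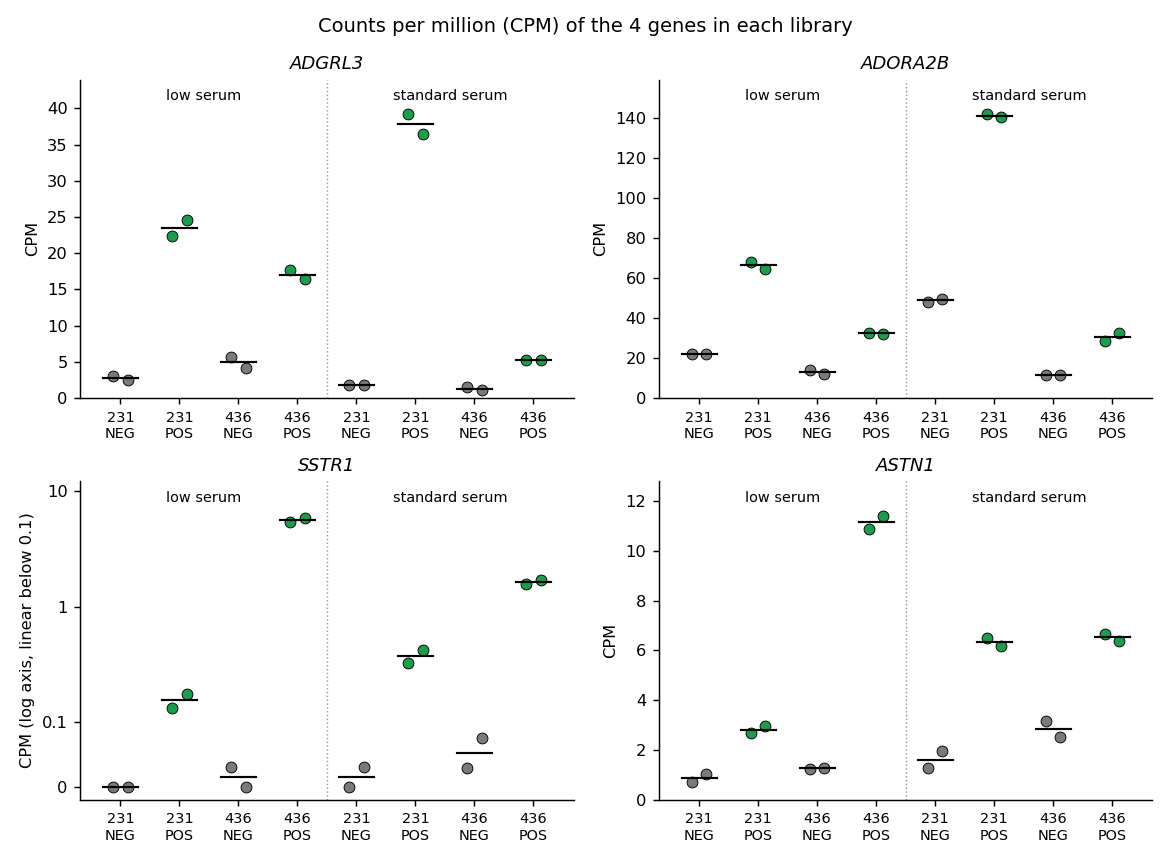
Level in CPM of ADGRL3, ADORA2B, SSTR1 and ASTN1 in each of the 16 libraries (points; 2 replicates a group, grey for 7TGP-NEG and green for 7TGP-POS) with the group mean (line); 231 and 436 are the MDA-MB lines and the SSTR1 axis is logarithmic above 0.1. ADGRL3 and ADORA2B were highest in MDA-MB-231 7TGP-POS, whereas SSTR1 was highest in MDA-MB-436 7TGP-POS.

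ADGRL3 showed its largest rise in MDA-MB-231. In low serum the MDA-MB-231 7TGP-NEG replicates held 92 and 76 counts and the 7TGP-POS replicates 669 and 697, or 2.77 ± 0.33 against 23.5 ± 1.57 CPM (mean ± SD, n = 2 in every group here and below). In standard serum the same sublines held 66 and 57 against 1324 and 1309 counts, or 1.81 ± 0.02 against 37.9 ± 1.94 CPM. The fitted log2 fold changes were 3.09 ± 0.13 (SE) and 4.33 ± 0.14. MDA-MB-436 held 185 and 120 counts in 7TGP-NEG and 559 and 457 in 7TGP-POS in low serum, and 51 and 43 against 244 and 193 in standard serum. Its log2 fold changes of 1.77 ± 0.12 and 1.98 ± 0.16 were smaller than those of MDA-MB-231, with differences of 1.32 ± 0.19 and 2.36 ± 0.23.

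The order of the ADGRL3 groups differed between serum conditions at its lower end. In low serum the mean levels ran from 23.5 CPM in MDA-MB-231 7TGP-POS over 17.0 in MDA-MB-436 7TGP-POS and 4.93 in MDA-MB-436 7TGP-NEG to 2.77 in MDA-MB-231 7TGP-NEG. In standard serum MDA-MB-231 7TGP-POS (37.9 CPM) stood 7.15-fold above MDA-MB-436 7TGP-POS (5.30 CPM), and MDA-MB-231 7TGP-NEG (1.81 CPM) lay above MDA-MB-436 7TGP-NEG (1.30 CPM). Replicates of neighbouring groups did not overlap in either order. The difference between the cell lines averaged over reporter status was not used to choose the genes and was tested: 40.8% of tested genes differed between the lines in low serum and 46.8% in standard serum. ADGRL3 did not pass in low serum (log2 difference of MDA-MB-231 over MDA-MB-436 of −0.07 ± 0.09, adjusted p = 0.465 from edgeR's quasi-likelihood test), since MDA-MB-436 was higher among the NEG cells and MDA-MB-231 among the POS cells. In standard serum ADGRL3 was higher in MDA-MB-231 by 1.87 ± 0.11 (adjusted p = 1.64e-11).

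The partners of ADGRL3 changed in different ways in the lines. Of 14 tested relatives and ligands (latrophilins, teneurins, FLRT proteins and the UNC5 receptors that also bind FLRT proteins), 3 were called higher and 1 lower in MDA-MB-231 in low serum, and 3 higher and 0 lower in MDA-MB-436. There the quasi-likelihood test at an adjusted p under 0.05 alone gave 4 higher and 3 lower. Over all genes tested that threshold gave 26.6% higher and 25.3% lower there. In standard serum 12 were tested, of which 4 were higher and 1 lower in MDA-MB-231 and 3 higher and 2 lower in MDA-MB-436. The background for lower calls was 2.4% and 4.03% (low serum) and 2.72% and 6.06% (standard serum), in the same order of lines. The list's median log2 fold change was −0.01 and 0.01 (low serum) and 0.52 and −0.36 (standard serum), beside medians between −0.01 and 0.01 over all genes tested.

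TENM2, a teneurin ligand, was the only list member called higher in both lines in both serum conditions. In MDA-MB-436 it rose from 9.18 ± 0.44 to 29.2 ± 0.48 CPM in low serum (log2 fold change 1.65 ± 0.09, adjusted p = 1.38e-18) and from 17.7 ± 1.2 to 57.4 ± 3.0 CPM in standard serum (1.64 ± 0.10, adjusted p = 1.06e-09). In MDA-MB-231 it was low throughout and rose from 13 to 161 counts over both replicates in low serum (adjusted p = 1.26e-13). In standard serum it went from 0 to 5 counts, at least 1.63-fold against a floor of 3 counts over the group. Leaving out any 1 of 3 of the 4 MDA-MB-231 libraries ended that call, as did DESeq2 (adjusted p = 0.0656). TENM1 rose in MDA-MB-231 alone among the calls, from 24.3 ± 0.68 to 86.5 ± 5.9 CPM in low serum and from 32.6 ± 0.10 to 472 ± 53 CPM in standard serum (log2 fold changes 1.84 ± 0.08 and 3.80 ± 0.11, adjusted p = 6.61e-15 and 6.24e-12). In MDA-MB-436 TENM1 stayed under 1 CPM in all 4 groups. The difference of its changes passed the test in both serum conditions (2.66 ± 0.43, adjusted p = 1.74e-05, and 4.62 ± 0.35, adjusted p = 1.48e-07), against backgrounds of 11.7% and 13.8% of genes whose change differed between lines.

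FLRT2, an FLRT ligand, went the other way. It rose in MDA-MB-436 from 4.58 ± 0.10 to 48.5 ± 1.9 CPM in low serum and from 7.10 ± 0.76 to 34.0 ± 2.5 CPM in standard serum (log2 fold changes 3.39 ± 0.08 and 2.21 ± 0.10, adjusted p = 4.96e-31 and 7.24e-12). In MDA-MB-231 FLRT2 was already high in 7TGP-NEG, at 100.4 CPM in low serum and 64.1 CPM in standard serum, with log2 fold changes of −0.24 and −0.41 that were not called. The changes differed between the lines by −3.63 ± 0.10 (adjusted p = 1.95e-28) and −2.62 ± 0.14 (adjusted p = 5.38e-11). TENM4 rose in MDA-MB-231 only among the calls, from 21 to 117 counts over both replicates in low serum and from 13 to 93 in standard serum. The other latrophilins, ADGRL1 and ADGRL2, stood between 43.9 and 155 CPM in every group and were not called in any comparison. By adjusted p under 0.05 alone in the quasi-likelihood test, some of their changes were lower in POS. ADGRL1 had log2 fold changes of −0.84 ± 0.05 (low serum) and −0.81 ± 0.08 (standard serum) in MDA-MB-436. ADGRL2 had −0.30 ± 0.05 and −0.53 ± 0.08 in MDA-MB-231, and −0.31 ± 0.09 in MDA-MB-436 in standard serum. UNC5B was called lower in both lines in standard serum, a call that in MDA-MB-231 (35 to 18 counts) was lost under 5 of 8 omissions of a library.

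**Figure D2:**
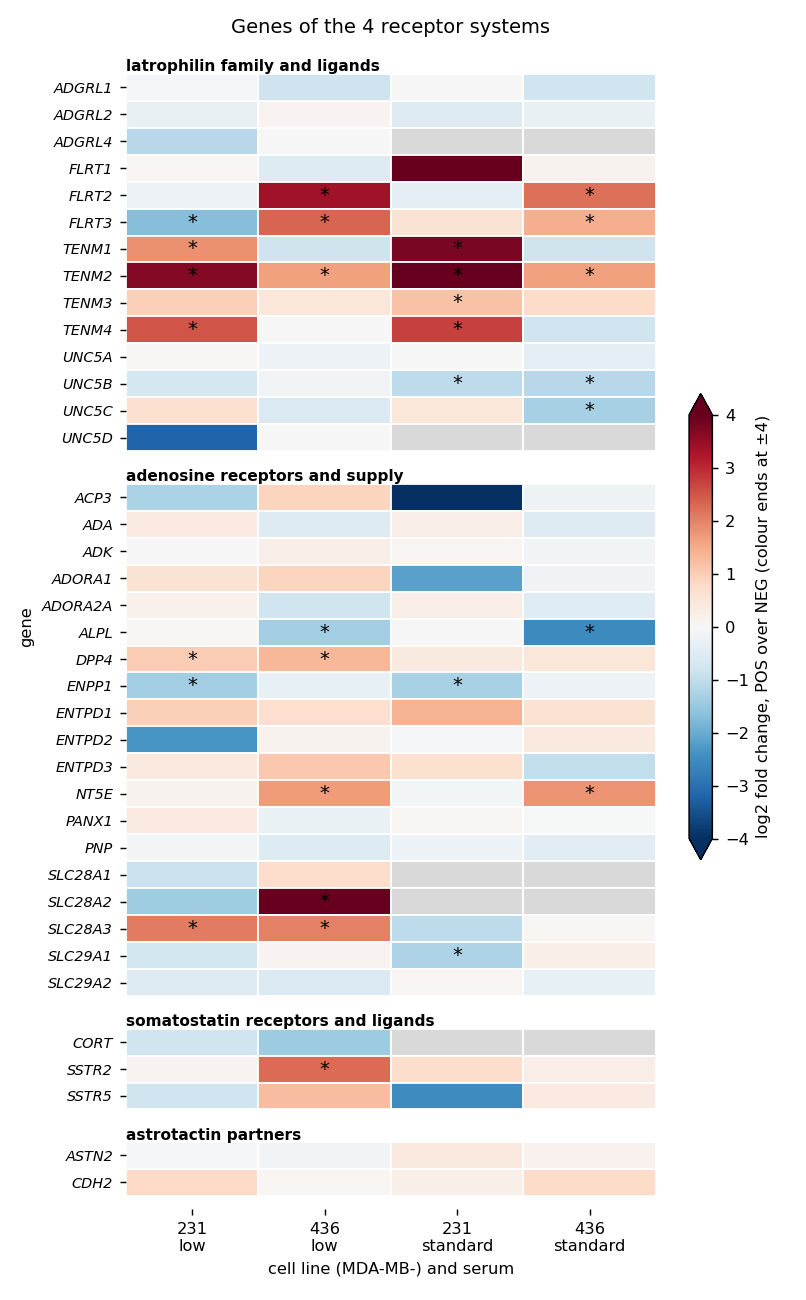
Log2 fold change (7TGP-POS over 7TGP-NEG) of the relatives, ligands and metabolic partners of the 4 genes in the 4 comparisons, as colour (red higher, blue lower, grey not tested; the scale ends at ±4); a star marks a gene called. TENM2 was called higher in all 4 columns, TENM1 only in the MDA-MB-231 columns, and FLRT2 and NT5E only in the MDA-MB-436 columns; dark cells without a star are genes with few counts.

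ADORA2B was the most abundant of the 4 genes and changed by nearly the same factor in every comparison. In low serum MDA-MB-231 went from 675 and 655 counts to 2042 and 1832, or from 21.9 ± 0.11 to 66.4 ± 2.57 CPM, and MDA-MB-436 from 457 and 348 to 1029 and 896 counts, or from 13.1 ± 1.30 to 32.3 ± 0.30 CPM. In standard serum the counts went from 1743 and 1583 to 4798 and 5036 in MDA-MB-231 (48.9 ± 1.17 to 141 ± 1.27 CPM) and from 390 and 445 to 1313 and 1180 in MDA-MB-436 (11.5 ± 0.13 to 30.4 ± 2.73 CPM). The ratios of mean CPM were 3.03 and 2.47 (low serum) and 2.89 and 2.66 (standard serum). The log2 change in MDA-MB-231 exceeded that in MDA-MB-436 by 0.32 ± 0.10 (low serum) and 0.13 ± 0.12 (standard serum).

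The level of ADORA2B depended on the line. Averaged over reporter status, it was higher in MDA-MB-231, with a log2 difference of 1.01 ± 0.05 in low serum (adjusted p = 1.29e-21 from edgeR's quasi-likelihood test) and by 2.36 ± 0.06 in standard serum (adjusted p = 2.97e-17). The low serum value lies at the threshold of 1 and fell to 0.96 without MDA-MB-436 7TGP-NEG replicate 2 and to 0.99 without MDA-MB-436 7TGP-POS replicate 2. In standard serum the order of the groups put MDA-MB-231 7TGP-NEG, with 48.9 CPM, above MDA-MB-436 7TGP-POS, with 30.4 CPM. In low serum it was the reverse, 21.9 against 32.3 CPM, and replicates of neighbouring groups did not overlap.

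Adenosine reaches ADORA2B from ATP outside the cell, which CD39 (ENTPD1) and CD73 (NT5E) break down and which ENPP1 can also cleave, and it is removed by transporters and by deaminase. Of 19 tested genes for the other adenosine receptors and for supply and removal, 2 were called higher and 1 lower in MDA-MB-231 and 4 higher and 1 lower in MDA-MB-436 in low serum. In standard serum 17 were tested, with 0 higher and 2 lower in MDA-MB-231 and 1 higher and 1 lower in MDA-MB-436, and at an adjusted p under 0.05 alone the quasi-likelihood test gave 1 higher in MDA-MB-231. Of the list 10.5%, 21.1%, 0% and 5.88% were called higher, beside 3.5%, 6.52%, 4.96% and 6.47% of all genes tested. Lower calls made up 5.26%, 5.26%, 11.8% and 5.88%, beside 2.4%, 4.03%, 2.72% and 6.06%. Median log2 fold changes over the list were 0.06 and 0.25 (low serum) and 0.00 and −0.17 (standard serum).

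NT5E rose in MDA-MB-436 from 56.3 ± 2.7 to 185 ± 1.6 CPM in low serum and from 24.0 ± 0.38 to 86.3 ± 3.0 CPM in standard serum (log2 fold changes 1.70 ± 0.06 and 1.79 ± 0.08, adjusted p = 1.70e-26 and 3.94e-12). In MDA-MB-231 NT5E was between 878 and 1114 CPM in all groups, with log2 fold changes of 0.14 and −0.10, and the changes differed between the lines (adjusted p = 1.34e-20 and 1.75e-10). ENPP1 fell in MDA-MB-231, from 1161 ± 5.9 to 436 ± 11 CPM in low serum and from 712 ± 29 to 300 ± 8.1 CPM in standard serum (log2 fold changes −1.40 and −1.30, adjusted p = 1.25e-24 and 2.12e-09), and was under 25 CPM in MDA-MB-436. SLC29A1, the main equilibrative nucleoside transporter, fell in MDA-MB-231 in standard serum from 206 ± 1.8 to 90.6 ± 2.3 CPM (log2 fold change −1.24 ± 0.07, adjusted p = 3.62e-10).

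Among the other adenosine receptors, ADORA1, which lowers cAMP, was at 12.5 to 23.8 CPM in the MDA-MB-436 groups and under 0.3 CPM in those of MDA-MB-231, and ADORA2A was under 2 CPM in every group. Neither was called in any comparison, but by adjusted p alone in the quasi-likelihood test both changed in MDA-MB-436 in low serum. There ADORA1 went from 12.7 to 23.8 CPM (log2 fold change 0.90 ± 0.09, adjusted p = 1.26e-10). ADORA2A went from 1.72 to 0.983 CPM (−0.81 ± 0.28, adjusted p = 0.0141). DPP4 (CD26), a surface peptidase that binds adenosine deaminase, was called higher in both lines in low serum, from 1.25 to 2.54 CPM in MDA-MB-231 and from 20.7 to 52.3 CPM in MDA-MB-436 (log2 fold changes 1.02 ± 0.19 and 1.32 ± 0.07, adjusted p = 1.89e-05 and 3.04e-19). The first of these fell to 0.98 without MDA-MB-231 7TGP-POS replicate 1. The nucleoside transporter SLC28A3 was also called higher in both lines in low serum, at under 2 CPM in every group, and leaving out any 1 of 3 MDA-MB-231 libraries ended its call there (adjusted p up to 0.21).

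SSTR1 was close to absent from every NEG library and clearly present only in MDA-MB-436 7TGP-POS. In low serum the NEG libraries held 0 and 0 counts in MDA-MB-231 and 1 and 0 in MDA-MB-436, whereas the POS libraries held 4 and 5 and then 169 and 162. In standard serum the NEG libraries held 0 and 1 and then 1 and 3 counts, and the POS libraries 11 and 15 in MDA-MB-231 and 72 and 62 in MDA-MB-436. The mean level in POS was 0.155 ± 0.03 and 5.57 ± 0.33 CPM in low serum and 0.372 ± 0.07 and 1.63 ± 0.10 CPM in standard serum, in that order of lines.

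Folds of SSTR1 rest on these few counts. In MDA-MB-231 in low serum it was at least 3.12-fold higher in POS than the floor of 3 counts over both NEG libraries. For MDA-MB-436 in low serum the ratio of summed counts per library total was 341, with a 95% exact counting interval from 60.7 to 13495. In standard serum the ratio was 25.4 (4.18 to 1042) in MDA-MB-231 and 29.6 (11.3 to 110) in MDA-MB-436, and these intervals cover counting error only. The fitted log2 fold changes of 5.31 ± 1.56, 8.06 ± 0.45, 4.35 ± 0.86 and 4.75 ± 0.48 depend on the prior count, and a prior count of 2 gave 1.77 and 6.03 for the low serum comparisons.

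Between the POS sublines the order was the same in both serum conditions, with MDA-MB-436 35.9-fold above MDA-MB-231 in low serum and 4.39-fold above it in standard serum. The NEG groups could not be ordered at this depth. The test between the lines averaged over reporter status called SSTR1 higher in MDA-MB-436 in low serum (log2 difference −3.63 ± 1.47, adjusted p = 0.0221) and in standard serum (−1.71 ± 0.68, adjusted p = 0.0273). It takes in the NEG groups at 0 to 3 counts. SSTR1 passed the filter on low counts only through its POS libraries, for which it was chosen. The test therefore cannot order the lines apart from the choice of the gene. The call was lost without MDA-MB-436 7TGP-NEG replicate 1 in low serum (adjusted p = 1.000) and without MDA-MB-231 7TGP-NEG replicate 1 or MDA-MB-436 7TGP-NEG replicate 2 in standard serum (adjusted p = 0.119 and 0.262).

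The ligand and the other somatostatin receptors were low. SST, the gene of somatostatin, and SSTR4 were listed at 0 in all 16 libraries, which for 0 counts in a library allows up to 3. CORT, the gene of the related peptide cortistatin, was under 0.2 CPM in every group. SSTR2 was called higher in MDA-MB-436 in low serum, from 4 to 20 counts over both replicates (log2 fold change 2.28 ± 0.71, adjusted p = 0.00634, but 0.0561 without MDA-MB-436 7TGP-NEG replicate 1), and stood between 0.659 and 1.5 CPM in MDA-MB-231 with no call. SSTR5 was under 0.4 CPM in every group with no call. In all, 1 of 3 tested list members (33.3%) was higher and 0 lower in MDA-MB-436 in low serum. Over all genes tested 6.52% were higher and 4.03% lower there. The quasi-likelihood test at an adjusted p under 0.05 alone also gave 0 lower in that comparison. Of those tested, 0 were called in the other comparisons at either threshold.

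ASTN1 rose most in a different line in each serum condition. In low serum MDA-MB-231 went from 22 and 31 to 80 and 84 counts (0.876 ± 0.22 to 2.82 ± 0.20 CPM) and MDA-MB-436 from 40 and 37 to 344 and 319 counts (1.26 ± 0.05 to 11.1 ± 0.39 CPM). In standard serum MDA-MB-231 went from 46 and 62 to 219 and 221 counts (1.61 ± 0.48 to 6.33 ± 0.23 CPM) and MDA-MB-436 from 107 and 99 to 307 and 233 counts (2.85 ± 0.45 to 6.53 ± 0.19 CPM). The log2 fold change in MDA-MB-231 was lower than that in MDA-MB-436 in low serum (1.69 ± 0.23 against 3.13 ± 0.17, a difference of −1.44 ± 0.32) and higher in standard serum (1.93 ± 0.19 against 1.15 ± 0.17, a difference of 0.79 ± 0.27).

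The POS groups of the lines, 3.96-fold apart in low serum with MDA-MB-436 above, overlapped in standard serum, where the replicates held 6.49 and 6.16 CPM in MDA-MB-231 and 6.67 and 6.39 CPM in MDA-MB-436. The NEG replicates of MDA-MB-436 lay above those of MDA-MB-231 in both serum conditions. Averaged over reporter status, ASTN1 was higher in MDA-MB-436 in low serum (log2 difference −1.14 ± 0.15, adjusted p = 1.16e-08) and did not pass in standard serum (−0.23 ± 0.13, adjusted p = 0.113). Its relative ASTN2 stood between 2.04 and 6.42 CPM in all groups and CDH2, the gene of N-cadherin, between 136 and 238 CPM in MDA-MB-436 and under 2 CPM in MDA-MB-231. Neither passed both thresholds in any comparison, and by adjusted p under 0.05 alone, in the quasi-likelihood test, 1 of the 2 was higher in MDA-MB-231 in low serum and 1 in MDA-MB-436 in standard serum, with 0 lower.

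**Figure D3:**
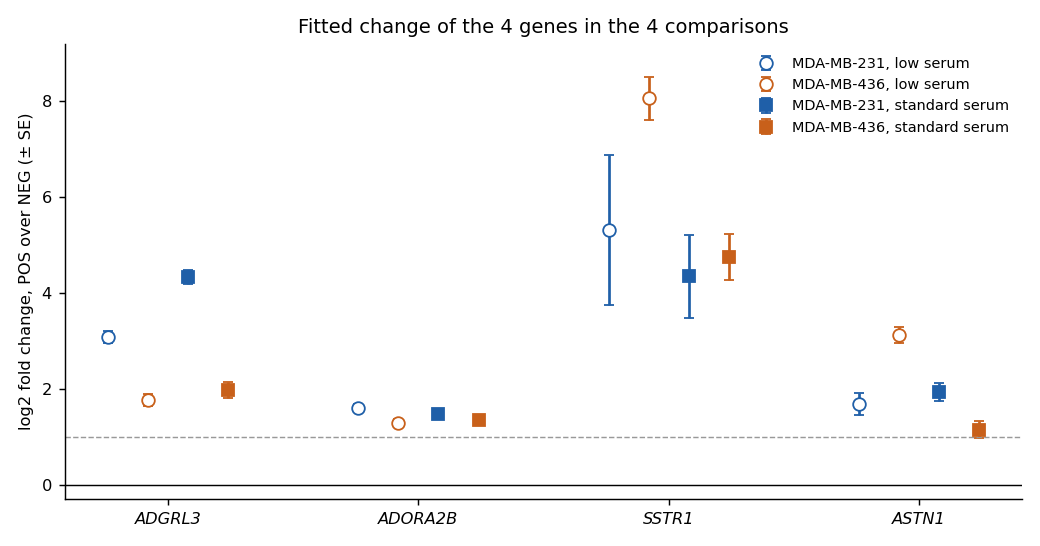
Fitted log2 fold change (7TGP-POS over 7TGP-NEG, ± SE from edgeR) of the 4 genes; open circles are low serum, filled squares standard serum, blue MDA-MB-231 and orange MDA-MB-436, and the dashed line marks 1. The ADORA2B values lie between 1.29 and 1.61 and those of ADGRL3 between 1.77 and 4.33, while the SSTR1 values have wide errors and rest on few counts.

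Per length of gene, ADORA2B was the highest of the 4 in every group, with mean levels from 15.6 TPM in MDA-MB-436 7TGP-NEG in low serum to 206 TPM in the standard serum cultures of MDA-MB-231 7TGP-POS. Among the genes tested these levels ranked at the 55.7 and 95.5 percentiles. ADGRL3 ranged from 0.34 to 10.1 TPM, ASTN1 from 0.235 to 3.08 TPM and SSTR1 from 0 to 3.3 TPM. In MDA-MB-436 7TGP-POS in low serum the level in TPM of ADGRL3 (3.09), SSTR1 (3.30) and ASTN1 (3.08) was nearly the same, while in standard serum MDA-MB-231 7TGP-POS held more ADGRL3 (10.1 TPM) than ASTN1 (2.55 TPM) and SSTR1 (0.32 TPM).

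Across the 8 libraries of a serum condition, which share lines and sorts, Pearson's r of log2(CPM + 1) was 0.954 in low serum and 0.766 in standard serum for SSTR1 with ASTN1, and 0.819 and 0.843 for ADGRL3 with ADORA2B. ADGRL3 with ASTN1 gave 0.729 and 0.735, close to the standard serum value of SSTR1 with ASTN1. It was 0.504 and 0.296 for ADGRL3 with SSTR1, 0.421 and 0.344 for ADORA2B with ASTN1, and 0.197 and 0.062 for ADORA2B with SSTR1. These values rest in part on the rise in POS by which the genes were chosen. By mean level, ADGRL3 and ADORA2B were highest in MDA-MB-231 7TGP-POS in both serum conditions and SSTR1 in MDA-MB-436 7TGP-POS, as was ASTN1 in low serum, whereas the ASTN1 levels of the POS groups overlapped in standard serum.

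The genes whose levels over the libraries were most like each of the 4 were ranked by the lower of the r values of the serum conditions, 8 libraries each. For ADGRL3 they were CADM2 (0.968), ANKRD30B (0.953), PRKCH (0.950), BMPER (0.941) and CXCL8 (0.919), which encode, in order, a synaptic adhesion protein, an ankyrin repeat protein, a protein kinase C, a secreted BMP regulator and interleukin-8. For ADORA2B they were PIGL (0.973), GID4 (0.972), MTUS1 (0.972), THRB (0.965) and ZC3H7B (0.963). For SSTR1 they were SPARC (0.994), an extracellular matrix protein, DENND1C (0.980), RGS17 (0.980), a regulator of G protein signalling, and PHTF2 (0.979). For ASTN1 they were NR1H3 (0.962), the nuclear oxysterol receptor, SEMA3E (0.954), a semaphorin, CFAP251 (0.950), PDE3A (0.935), a phosphodiesterase, and CCDC122 (0.929). With a pseudocount of 0.1, 2 of the first 5 genes for SSTR1 were still among its first 5.

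The neighbours of the genes on the chromosome were examined over the 5 tested genes on each side. Around ADORA2B the median log2 fold change of the 10 neighbours was 0.59 in MDA-MB-231 and 0.21 in MDA-MB-436 in low serum. In standard serum it was 0.56 and 0.24. By adjusted p under 0.05 alone 7, 5, 5 and 4 of the 10 were higher in these comparisons and 0 lower. Over all genes tested by that threshold, 19%, 26.6%, 16.8% and 26.1% were higher and 19.9%, 25.3%, 16.2% and 23.4% lower, in the order of low serum and then standard serum, MDA-MB-231 first. ZSWIM7, which lies 814 bases beyond the 3′ end of ADORA2B on the opposite strand, went from 16.4 to 26.4 CPM in MDA-MB-231 and from 7.33 to 12 CPM in MDA-MB-436 in low serum (log2 fold changes 0.70 ± 0.08 and 0.69 ± 0.10, adjusted p = 2.23e-09 and 1.68e-07). In standard serum its log2 fold changes were 0.56 ± 0.09 and 0.31 ± 0.09 (adjusted p = 6.73e-05 and 0.0108). PIGL, the gene most like ADORA2B in pattern, is the fourth neighbour on that side, 241445 bases away, with log2 fold changes between 0.55 and 0.74. These changes of ZSWIM7 and PIGL were below the threshold of 1 that calls a gene and smaller than those of ADORA2B. Of the 10 neighbours, 1 was called higher in 1 comparison, CDRT1 in MDA-MB-231 in standard serum, at 0.0157 against 0.186 CPM. CDRT1 was named after its values were seen. ZNF286A, the nearest tested gene on the other side, had log2 fold changes from 0.21 to 0.27.

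Around ADGRL3 the median was between −0.05 and 0.10 in the 4 comparisons, and its nearest tested genes lie 4089493 bases before its start and 3241228 bases beyond its end. EPHA5, an ephrin receptor, was called higher in 3 comparisons (log2 fold changes 1.37, 1.30 and 1.63; MDA-MB-436 in standard serum had 9 against 12 counts). IGFBP7, a secreted binding protein, rose in MDA-MB-436 from 0.769 to 19 CPM in low serum while in MDA-MB-231 its log2 fold change was −0.44 and not called. Around SSTR1 the medians were 0.43 and 0.22 (low serum) and 0.43 and 0.17 (standard serum). By adjusted p alone 5, 3, 5 and 3 of the 10 neighbours were higher and 0, 0, 0 and 1 lower. SEC23A, its nearest tested gene on one side, had log2 fold changes of 0.49 and 0.23 in low serum (adjusted p = 2.57e-10 and 0.000251) and of 0.44 and 0.12 in standard serum (adjusted p = 0.000353 and 0.257). TTC6 on the other side was called higher in MDA-MB-231 only, at under 0.6 CPM. Its low serum call (log2 fold change 1.76, adjusted p = 0.0124) was lost without MDA-MB-231 7TGP-NEG replicate 1 or 7TGP-POS replicate 2 (adjusted p up to 0.248, log2 fold change down to 0.92) and with DESeq2 (adjusted p = 0.0694).

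Around ASTN1 the medians were between 0.07 and 0.27, with 4, 5, 2 and 3 of the 10 higher and 0, 2, 0 and 1 lower by adjusted p alone. PAPPA2, a protease of IGF-binding proteins 11701 bases beyond the 3′ end of ASTN1, rose in MDA-MB-231 from 3.48 to 12.2 CPM in low serum and from 16.4 to 54.1 CPM in standard serum (log2 fold changes 1.82 ± 0.14 and 1.67 ± 0.10, adjusted p = 1.59e-14 and 2.07e-10). In MDA-MB-436 PAPPA2 had log2 fold changes of −0.85 ± 0.19 and −0.38 ± 0.18. BRINP2, 5985 bases before the start of ASTN1, rose in MDA-MB-436 in low serum from 36 and 40 to 186 and 153 counts (log2 fold change 2.18 ± 0.20, adjusted p = 2.72e-12). In standard serum it held 72 and 70 against 90 and 69 counts (−0.08 ± 0.23).

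**Figure D4:**
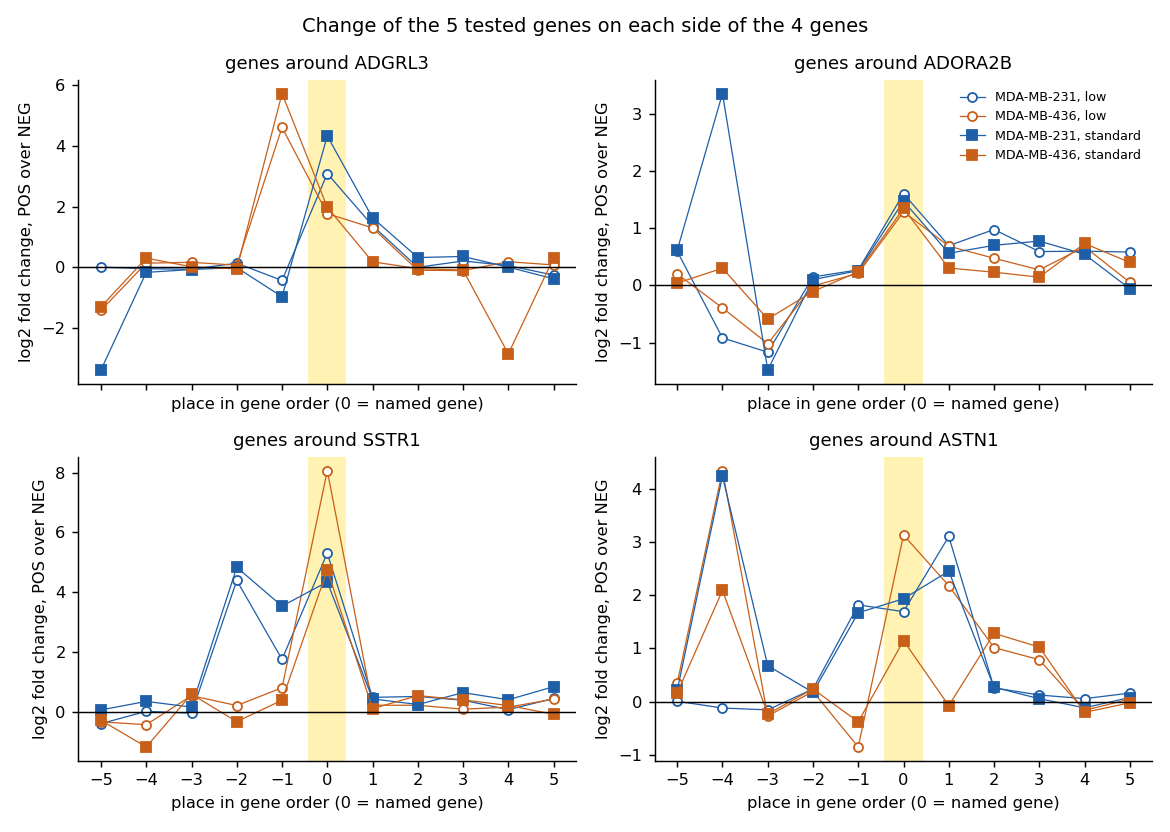
Log2 fold change (7TGP-POS over 7TGP-NEG) of the 5 tested genes on each side of ADGRL3, ADORA2B, SSTR1 and ASTN1 in gene order along the chromosome, with the named gene at place 0 (shaded); open circles are low serum, filled squares standard serum, blue MDA-MB-231 and orange MDA-MB-436. The 5 places right of ADORA2B lie above 0 in all 4 comparisons except the fifth, which is at −0.06 in MDA-MB-231 in standard serum; large values at places with few counts, such as −4 around ADORA2B, are uncertain.

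Set beside other G protein-coupled receptors, ADGRL3, ADORA2B and SSTR1 were 3 of 4 called higher in all 4 comparisons among the 200 receptors tested in both serum conditions (2%), a count that the choice of the genes fixes in part. None of the 200 was called lower in all 4. The fourth was PTGFR, the receptor for prostaglandin F2α. It rose from 2.10 ± 0.15 to 6.19 ± 1.4 CPM in MDA-MB-231 and from 2.52 ± 0.55 to 6.55 ± 0.65 CPM in MDA-MB-436 in low serum (log2 fold changes 1.57 ± 0.19 and 1.36 ± 0.18, adjusted p = 1.91e-08 and 6.35e-08). In standard serum PTGFR rose from 0.736 ± 0.03 to 3.60 ± 0.23 CPM and from 1.56 ± 0.22 to 4.43 ± 0.56 CPM (2.23 ± 0.23 and 1.46 ± 0.19, adjusted p = 4.58e-07 and 5.09e-06).

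Of the 233 receptors tested in low serum, 20 were called higher and 11 lower in MDA-MB-231, and 30 higher and 23 lower in MDA-MB-436. In standard serum 207 were tested, of which 28 were higher and 13 lower in MDA-MB-231 and 25 higher and 30 lower in MDA-MB-436. The shares of receptors called higher were 8.58%, 12.9%, 13.5% and 12.1%, low serum and MDA-MB-231 first, and those called lower 4.72%, 9.87%, 6.28% and 14.5%. Over all genes tested 3.5%, 6.52%, 4.96% and 6.47% were called higher and 2.4%, 4.03%, 2.72% and 6.06% lower. These receptor counts and shares take in the 3 receptors chosen. Apart from those and PTGFR, GLP2R, GPR37, LGR6 and NPFFR2 were called higher and GPR78 lower in both lines in low serum, and CALCRL was higher and CXCR4 and P2RY2 lower in both lines in standard serum. GPR37 rose from 2.75 to 5.85 CPM in MDA-MB-231 and from 6.15 to 12.9 CPM in MDA-MB-436, the latter with a log2 fold change of 1.06 ± 0.12 that fell to 0.89 without MDA-MB-436 7TGP-NEG replicate 1. CXCR4, the chemokine receptor for CXCL12, fell in standard serum from 15.7 to 7.66 CPM in MDA-MB-231 and from 3.58 to 1.14 CPM in MDA-MB-436 (log2 fold changes −1.09 ± 0.16 and −1.70 ± 0.22, adjusted p = 4.89e-05 and 9.75e-06). The first had a size of 0.99 without MDA-MB-231 7TGP-POS replicate 2. In low serum CXCR4 had log2 fold changes of 0.18 and 0.12. The call of P2RY2 in MDA-MB-436, on 23 against 6 counts, was lost without MDA-MB-436 7TGP-NEG replicate 2 (adjusted p = 0.112). NPFFR2 and CALCRL were under 0.6 CPM in every group, and their calls in at least 1 line were lost without single libraries.

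**Figure D5:**
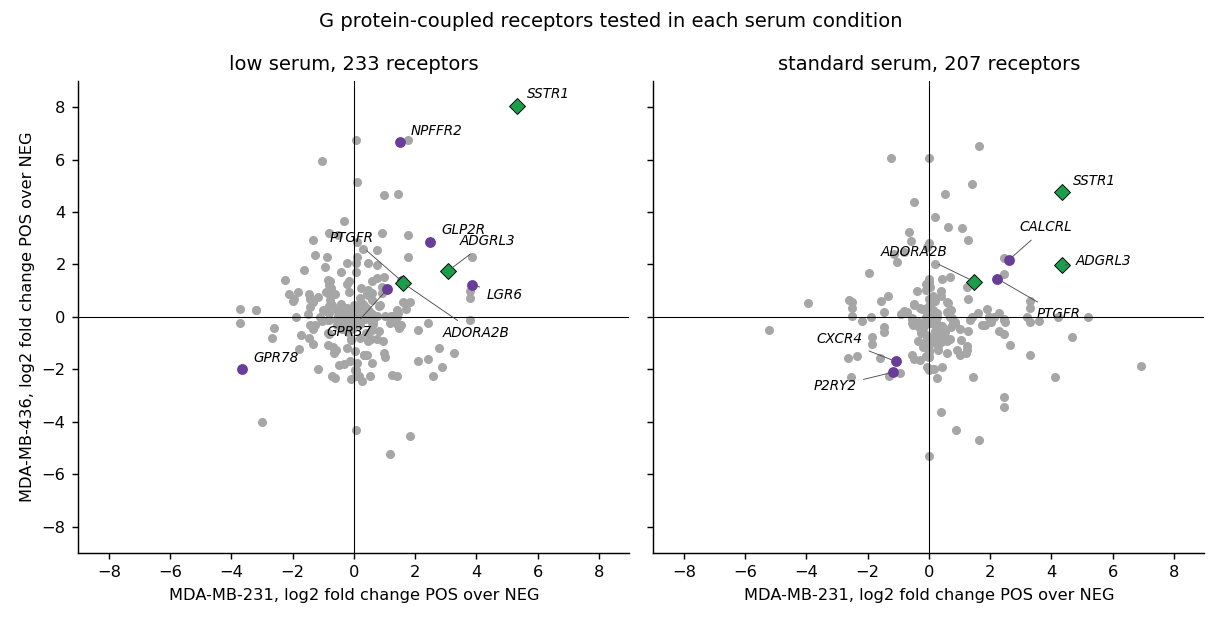
Log2 fold change (7TGP-POS over 7TGP-NEG) in MDA-MB-231 (horizontal) and MDA-MB-436 (vertical) of the G protein-coupled receptors tested in each serum condition; green diamonds are ADGRL3, ADORA2B and SSTR1, purple points other receptors called in the same direction in both lines, grey points the rest. In low serum SSTR1 lies farthest to the upper right and PTGFR lies next to ADORA2B.

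Genes that act downstream of the receptors were read next. Of 13 G protein alpha subunit genes, 0 were called in MDA-MB-231 in either serum condition (2 higher and 2 lower in low serum and 1 of each in standard serum by adjusted p under 0.05 alone in edgeR's quasi-likelihood test). GNAI1 was the 1 called higher in MDA-MB-436 in both. This was 7.69% of the list, beside 6.52% (low serum) and 6.47% (standard serum) of all genes tested. GNAI1, an inhibitory subunit, rose from 34.2 ± 1.1 to 99.4 ± 2.9 CPM in low serum and from 21.8 ± 0.53 to 78.4 ± 3.0 CPM in standard serum (log2 fold changes 1.53 ± 0.06 and 1.79 ± 0.09, adjusted p = 1.10e-23 and 1.04e-11). Its change differed from that in MDA-MB-231 (adjusted p = 3.98e-14 and 4.12e-08).

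Of 33 genes for cAMP synthesis, cAMP breakdown and protein kinase A, 4 were called higher in each line and 0 and 1 lower in MDA-MB-231 and MDA-MB-436 in low serum, and 4 and 5 were higher and 1 and 2 lower in standard serum. The share called higher was 12.1%, 12.1%, 12.1% and 15.2%, beside 3.5%, 6.52%, 4.96% and 6.47% of all genes tested. PDE7B, which breaks down cAMP, was called higher in all 4 comparisons. It rose from 5.38 ± 0.10 to 21.5 ± 0.18 CPM and from 0.114 ± 0.01 to 9.79 ± 0.37 CPM in low serum, MDA-MB-231 first. In standard serum it rose from 2.79 ± 0.12 to 18.4 ± 1.3 CPM and from 0.187 ± 0.10 to 8.38 ± 0.21 CPM. Its change was larger in MDA-MB-436 (log2 differences, MDA-MB-231 minus MDA-MB-436, of −4.35 ± 0.34 and −2.70 ± 0.32, adjusted p = 6.10e-14 and 2.35e-06). PDE3A, another phosphodiesterase, was also called higher in all 4, at under 3.5 CPM. Its calls in standard serum were lost without MDA-MB-231 7TGP-NEG replicate 1 (adjusted p = 0.0558) and, for MDA-MB-436, without any 1 of 3 of its libraries (adjusted p up to 0.318).

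The target genes of CREB, the transcription factor that cAMP activates, showed no common direction. Of 16 tested, 1 and 1 were called higher and 0 lower in low serum, and 0 and 2 were higher and 3 and 0 lower in standard serum (MDA-MB-231 first). Higher calls made up 6.25%, 6.25%, 0% and 12.5%, beside 3.5%, 6.52%, 4.96% and 6.47% of all genes tested. The lower calls in MDA-MB-231 in standard serum made up 18.75%, beside 2.72%. The list had median log2 fold changes of 0.10, −0.08, −0.09 and 0.24. By adjusted p under 0.05 alone in the quasi-likelihood test, 5 and 3 of them were higher and 3 and 4 lower in low serum. Over all genes tested that threshold gave 19% and 26.6% higher and 19.9% and 25.3% lower. FOS, an immediate early gene, fell in MDA-MB-231 in standard serum from 49.3 ± 1.3 to 13.3 ± 2.4 CPM. PPARGC1A, a transcriptional coactivator of metabolism, rose in MDA-MB-436 from 0.509 ± 0.07 to 17.1 ± 1.1 CPM in low serum and from 0.577 ± 0.02 to 3.85 ± 0.03 CPM in standard serum. Of 20 tested kinases, arrestins and RGS proteins that end receptor signals, RGS9 was called lower in both lines in standard serum (log2 fold changes −1.13 ± 0.13 and −1.41 ± 0.15, adjusted p = 2.07e-06 and 4.03e-07). In all 1, 2, 1 and 3 were called higher and 0, 1, 1 and 4 lower in the comparisons in the order of low serum and then standard serum, MDA-MB-231 first. As shares, 5%, 10%, 5% and 15% were higher, beside 3.5%, 6.52%, 4.96% and 6.47% of all genes tested. Lower were 0%, 5%, 5% and 20%, beside 2.4%, 4.03%, 2.72% and 6.06%.

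Canonical Wnt targets, to which the reporter belongs by design, were called higher for 1 of 13 in MDA-MB-231 and 2 of 13 in MDA-MB-436 in low serum, and for 2 of 13 in each line in standard serum, with 0, 1, 0 and 2 lower. Over all genes tested 3.5%, 6.52%, 4.96% and 6.47% were called higher and 2.4%, 4.03%, 2.72% and 6.06% lower. By adjusted p under 0.05 alone in the quasi-likelihood test, 7, 5, 2 and 4 of the 13 were higher and 1, 2, 1 and 2 lower. Over all genes that threshold gave 19%, 26.6%, 16.8% and 26.1% higher and 19.9%, 25.3%, 16.2% and 23.4% lower. Median log2 fold changes of the list were 0.37, 0.19, 0.02 and −0.08. TNFRSF19, a Wnt-responsive receptor of the TNF family, was called higher in both lines in standard serum, from 1.17 ± 0.25 to 2.56 ± 0.15 CPM in MDA-MB-231 (log2 fold change 0.88 without 7TGP-NEG replicate 1, as against 1.08) and from 0.410 ± 0.04 to 2.38 ± 0.05 CPM in MDA-MB-436.

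Because ADGRL3, ASTN1 and SSTR1 are best known from the nervous system, 17 genes that mark neurons were read beside them. Their summed level in MDA-MB-231 was 31.7 to 32.7 CPM in 7TGP-NEG and 32.4 to 34.4 CPM in 7TGP-POS in low serum, and 17.8 to 18.3 against 31.25 to 31.27 CPM in standard serum. In MDA-MB-436 it was 63.3 to 65.4 against 70.2 to 71.5 CPM and 66.9 to 67.5 against 76.4 to 83.3 CPM. Of those tested, 1 of 16 and 2 of 16 were called higher in low serum and 1 of 14 and 3 of 14 in standard serum, with 0 lower in each. These were 6.25%, 12.5%, 7.14% and 21.4%, beside 3.5%, 6.52%, 4.96% and 6.47% of all genes tested. By adjusted p under 0.05 alone in the quasi-likelihood test 1 and 2 and then 0 and 1 were lower. No marker was at 0 in every library of a serum condition, but ELAVL4, GAP43 and STMN2 held 10 counts or fewer in each of the 16. Markers of immune, endothelial, stromal and pigment cells summed to 7.34 to 22.4 CPM in all libraries. Of 6 tested in low serum 1 was called higher in each line, and of 5 in standard serum 0 and 1, with 0 lower. Those higher calls made up 16.7%, 16.7%, 0% and 20%, beside 3.5%, 6.52%, 4.96% and 6.47% of all genes tested. CD3E, CDH5 and MLANA held 10 counts or fewer in every library, but other markers of the list did not. PTPRC was called higher in MDA-MB-231 in low serum (1.93 to 4.22 CPM) and held 7.10 and 9.23 CPM there in standard serum, 7TGP-NEG first. CD14 reached 10.3 CPM in MDA-MB-436 7TGP-POS in low serum. ACTA2 was called higher in MDA-MB-436, from 1.04 to 2.83 CPM in low serum and from 1.58 to 4.32 CPM in standard serum. The part of the neuronal and other markers in the changes of the 4 genes was not tested.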

How the data were processed

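The authors deposited gene counts, without normalization, and TPM values. According to the study's methods, reads were aligned to ribosomal RNA with Bowtie and to hg19 with STAR (2.6.1a in the submitters' processing notes) and counted by STAR on Gencode v19 genes, with no strand setting named. How the TPM was made is not given in the sources used here, but within a serum condition each gene's TPM equals its counts over 1 fixed length up to a factor per library (within 0.01 on the log2 scale for 100% of 3176 and 4095 genes compared). Of the gene identifiers, 55538 matched Gencode v44 lifted to GRCh37, which supplied names, positions and biotypes.

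Each serum condition was fitted apart. Protein-coding genes with at least 10 counts over the 8 libraries were normalized with TMM and fitted with edgeR 4.0.16 (robust quasi-likelihood, 4 groups, prior count 0.125; R 4.3.3), with p-values adjusted (Benjamini-Hochberg) over all genes tested. Calls need an adjusted p under 0.05 together with a log2 fold change of 1 or more in size. SE is the absolute log2 fold change over the square root of F. CPM uses the plain library total. Replicates carry separate sample labels as biological replicates, and p-values measure only the spread between them; with 2 against 2 an exact permutation test cannot go below 0.333, so single values carry none. Counting intervals are exact (Clopper-Pearson, 95%) and cover counting error only. Each fit was tested on simulated data with 200 genes changed 4-fold. Of these, 99.5% in low serum (16069 genes) and 100% in standard serum (15414 genes) were recovered, with 0 others called. The recovered share was not split by count level, so it says nothing about calls that rest on few counts. Alternatives were DESeq2 1.42.0, other normalization, filters, biotypes and prior counts, limma 3.58.1 on log2 TPM, a replicate block and the omission of each library. Tables and figures were made with scipy 1.17.1, pandas 2.3.3, matplotlib 3.10.9 and numpy 2.4.6 under Python 3.11.15.

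The 4 genes and all gene lists were chosen with earlier results of these data known. Named are the 4 genes, any gene of the lists of their relatives, ligands and supply, genes of the other lists called in the same direction in both lines or among the 3 lowest adjusted p of a list and comparison, the 5 genes most like each (1 of those of SSTR1 is not reported here), and the nearest tested neighbours. Other markers named at or near 0, VIM, CDH1, KRT8, KRT18, PTPRC, CD14 and ACTA2 were chosen after their values were seen. Upstream sequences are from RefSeq on GRCh38.p14 and all 4 genes matched. The longer element of the reporter was not searched, and list symbols with no unique protein-coding match (among them ADORA3 and SSTR3; 344 of 350 receptor symbols matched) were not analysed here.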

Additional observations from a re-analysis of the deposited data

Results flagged for a closer look

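FLRT3, a ligand of ADGRL3, changed in opposite directions in the lines in low serum, and the difference of its changes passed the test. It fell from 38 to 11 counts over both replicates in MDA-MB-231 (log2 fold change −1.70 ± 0.48, adjusted p = 0.00362) and rose from 34 to 169 counts in MDA-MB-436 (2.34 ± 0.27, adjusted p = 8.17e-10), a difference of −4.04 ± 0.54 (adjusted p = 4.99e-08 from edgeR's quasi-likelihood test). In standard serum it held 5 and 8 counts in MDA-MB-231 and rose from 15 to 48 in MDA-MB-436, a call lost under 2 of 8 omissions of a library, and the difference of changes did not pass (−0.87 ± 1.07, adjusted p = 0.567).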

How the results depend on the processing

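The log2 fold changes of the 4 genes were above 0 under all 17 alternatives in each of the 16 values. The choice of the genes on these same libraries largely fixes that sign, so it is no test of the rise. ADORA2B stayed between 1.00 and 1.64, and the lowest values of the others came from limma on log2(TPM + 1), which pulls low genes to 0 by its pseudocount (SSTR1 0.10 in MDA-MB-231 in low serum). The order of the ASTN1 changes of the lines kept its sign in each serum condition (−1.67 to −1.10 and 0.32 to 1.10). The difference of the SSTR1 changes in standard serum, −0.40, ranged from −1.35 to 2.16 over the omission of each library, positive without MDA-MB-231 7TGP-NEG replicate 2 (2.16) or MDA-MB-436 7TGP-NEG replicate 1 (0.06). The order of the group levels was the same with deposited TPM and with TMM factors, except for 1 of 6 pairs of ASTN1 in standard serum with TMM factors.

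With limma on log2(TPM + 1), genes called higher and lower in POS numbered 140 and 162 in MDA-MB-231 in low serum (563 and 385 in the report's fit), 322 were higher in MDA-MB-436 in low serum (1047), 354 and 168 in MDA-MB-231 (765 and 420) and 542 and 399 in MDA-MB-436 (998 and 934) in standard serum, 561 had a lower log2 fold change in MDA-MB-231 than in MDA-MB-436 with low serum (1126), the line contrast counted 1418 genes with MDA-MB-231 above MDA-MB-436 for low serum (3120) and 2038 for standard serum (3257), and 1 of the 4 genes differed between lines in low serum (3). The 3 of the report's fit include SSTR1, whose line test cannot order the lines apart from the choice of the gene. Over all genes tested, 40.8% differed between the lines in low serum. With limma and a pseudocount of 0.1, 1994 genes were higher in MDA-MB-231 than in MDA-MB-436 in low serum. With all biotypes 5250 were higher and 5474 lower in MDA-MB-231 than in MDA-MB-436 (low serum), and 4990 and 6074 (standard serum), since more genes were tested. With limma on log2(TPM + 1) and then log2(TPM + 0.1), differences of changes turned sign for TENM2 (−0.57 in low serum with the first, −1.55 and −1.41 in standard serum), BRINP2 (−1.13 and −1.01 in low serum) and DENND1C (−1.06 and −2.33 in standard serum). Over the omission of each library the difference ranged from −4.13 to 1.02 for SNAP25 in low serum, positive without MDA-MB-231 7TGP-NEG replicate 2, and from −2.50 to 3.91 for CADM2 in standard serum, negative without MDA-MB-436 7TGP-NEG replicate 2. The cause was not tested.

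Over 3 genes on each side, medians of neighbours were 0.062 and 0.15 for ADGRL3 in MDA-MB-231 (low and standard serum), 0.43 and 0.41 for ADORA2B in MDA-MB-231, 0.40 for SSTR1 in MDA-MB-436 in standard serum, and for ASTN1 0.25 in MDA-MB-231 and 0.49 in MDA-MB-436 (low serum) and 0.47 in MDA-MB-231 (standard serum). With a pseudocount of 0.1, 2 of the 5 genes most like SSTR1 were shared. Same-numbered replicates share only a number (correlation of deviations −0.148 to 0.236), and a replicate block gave 552, 1030, 754 and 999 genes called higher against 563, 1047, 765 and 998, and no count of calls moved by over 1.5 times under this pairing. The calls of TENM2 and UNC5B in MDA-MB-231 in standard serum were among those lost under the block. Depth limits SSTR1 in the NEG groups and in MDA-MB-231.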
